A study of Schizosaccharomyces pombe with 12 samples.

Results

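RNA of fission yeast, Schizosaccharomyces pombe, carrying the Dicer allele dcr1ΔC33 was compared with RNA of wild-type cells on tiling arrays, which cover a genome with closely spaced probes. Membership followed the genotype label, which gave 3 arrays of dcr1ΔC33 (strain SPB287) and 3 of wild type (strain SPB80), 6 of the 12 arrays of the study. The other 6 arrays came from dcr1Δ (strain SPB81) and dcr1-SHSS (strain SPB776), with 3 arrays each, and served for the direct comparisons at the end. Cells of all 4 strains were collected at an optical density of 0.5, and 200 ng of hot-phenol total RNA was labelled per array. The labels name the alleles and give no sequence change. From general knowledge, dcr1ΔC33 is read as Dicer shortened at its C-terminus, dcr1Δ as the gene deletion and dcr1-SHSS as Dicer changed in a zinc-binding motif. Each allele was represented by 1 strain, so an effect of the allele and any other difference between strains cannot be told apart. The labelled target was double-stranded, so the arrays do not tell the strands of a feature apart.

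Dicer cleaves double-stranded RNA into the small interfering RNAs of the RNA interference pathway. In fission yeast these guide the silencing of the repeats around the centromeres, where loss of Dicer lets non-coding transcripts accumulate. The study's title places an extended RNA-binding domain of Dicer in the retention of the protein in the nucleus, and the comparison asks what RNA levels look like when the C-terminal region is altered and the rest of the gene is still there.

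The level of each of 5483 annotated features was a deposited log2 value, so a difference of 1 is a 2-fold change. The array medians lay between 11.37 and 11.42, the median SD between arrays was 0.0715 in wild type and 0.0538 in dcr1ΔC33. Precision is limited by having 3 arrays per strain. A feature is said to have risen or fallen where its adjusted p (limma with Benjamini-Hochberg adjustment over all 5483 features) was under 0.05. Changes are given as dcr1ΔC33 minus wild type on the log2 scale with the standard error of the model and n = 3 arrays per strain.

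The dcr1 gene (SPCC188.13c) itself had log2 levels of 10.49, 10.57 and 10.60 in wild type, against 10.86, 10.89 and 10.85 in dcr1ΔC33. The groups did not overlap, with every dcr1ΔC33 array above every wild-type array. On the dcr1Δ arrays, where the gene is deleted, it lay at 5.52, 5.80 and 5.37, among the lowest 2 percent of features. The change in dcr1ΔC33 was 0.31 ± 0.09 (adjusted p = 0.02). This call was lost without wild-type array 1 (adjusted p = 0.0628), without dcr1ΔC33 array 2 (0.058) and when each array was centred within each chromosome (0.23). The overlapping septin gene spn6 rose from 7.79, 7.46 and 7.80 to 9.11, 9.25 and 9.08 (1.47 ± 0.10, adjusted p = 3.52e-06). Signal of this pair cannot be assigned to a strand.

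In dcr1ΔC33, 1771 of 5483 features (32.3%) were called, 807 of them higher (14.7%) and 964 lower (17.6%). The rises were fewer and larger. A change of at least 1.5-fold was reached by 223 features that rose (4.07%) and by 12 that fell (0.219%), at least 2-fold by 108 (1.97%) and 2 (0.0365%), and at least 4-fold by 27 (0.492%) and 1 (0.0182%). The median change was 0.37 among the rises, or 1.29-fold, and -0.20 among the decreases, or 1.15-fold down. Of all features 1749 (31.9%) were both called and free of overlap between the strains, and 2454 (44.8%) had an unadjusted p under 0.05. Without dcr1ΔC33 array 3 the count fell to 1178, with 576 lower.

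The direction moved with the level of the feature. Among the 20 percent of features with the lowest mean levels 22.6% rose and 4.01% fell, with a median change of 0.10. In the 20 percent with the highest levels 7.84% rose and 23.2% fell, with a median change of -0.06. The share of higher calls was 45.6% as deposited and 37.1% after quantile normalization. Median levels of several lists are given for this reason. List counts of 3 or fewer often moved by more than 1.5 times when 1 array was left out, in many lists to 0, and carry little weight.

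**Figure D1:**
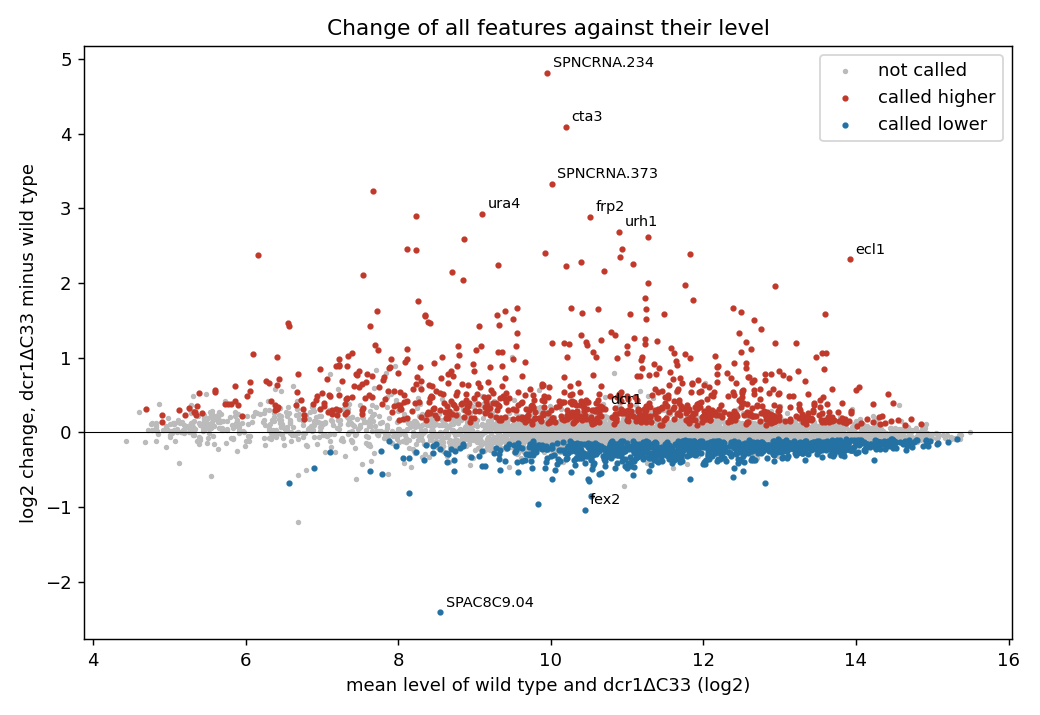
Log2 change in dcr1ΔC33 against the mean level of wild type and dcr1ΔC33 for all 5483 features, each point 1 feature, with features called higher in red, called lower in blue and not called in grey. The 27 rises of at least 4-fold reach a change of 4.81 at SPNCRNA.234, while SPAC8C9.04, at -2.41, is the only decrease of that size.

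Centromeric non-coding RNAs gave some of the largest rises. In the gene order of assembly ASM294v3 the longest interior gap between coding genes of chromosome I, which holds its centromere, lies between per1 and emc5. It spans 39.2 kb and holds 4 measured non-coding RNAs. The gap on chromosome II, between rpb1 and yox1, spans 51.5 kb and holds 7, and the gap on chromosome III, between chk1 and ppc1, spans 78.2 kb and holds 2. Of these 13 features 4 rose (30.8%, beside 14.7% of all features), none fell and 9 were not called. Their median change was 0.10 beside -0.03 over all features. Their median level in wild type was 5.98, and among the 20 percent of features with the lowest levels 22.6% rose. The count of 4 was the same without each of the 6 arrays in turn and became 2 without the lowest 20 percent of features, a filter that removes some of these RNAs.

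SPNCRNA.234, in the chromosome I gap, lay at 8.03, 6.80 and 7.82 in wild type and at 12.32, 12.42 and 12.33 in dcr1ΔC33. The wild-type arrays were spread over more than a log2 unit, while the dcr1ΔC33 arrays lay close together and far above them. SPNCRNA.234 rose 28.1-fold (4.81 ± 0.25, adjusted p = 5.03e-07), the largest of all features. From the same gap, SPNCRNA.232 rose from 5.80, 5.94 and 6.43 to 9.38, 8.72 and 9.77, and SPNCRNA.231 from 6.75, 6.96 and 6.95 to 9.50, 9.08 and 9.44. Neither pair of groups overlapped, and the rises were 9.42-fold (3.24 ± 0.24) and 5.49-fold (2.46 ± 0.11). The wild-type mean of SPNCRNA.232 stood at percentile 3.4 of all features, so the size of its rise is uncertain. The remaining RNA of the gap, SPNCRNA.233, was among the lowest 2 percent of features in both strains and differed by 0.38 ± 0.27 (adjusted p = 0.299).

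In the chromosome II gap SPNCRNA.373 rose from 8.12, 8.08 and 8.84 to 11.72, 11.75 and 11.56, which was 10.1-fold (3.33 ± 0.17, adjusted p = 5.82e-07). The other RNAs there were not called, with changes from -0.12 at SPNCRNA.370 to 0.51 at SPNCRNA.364. SPNCRNA.364 and SPNCRNA.366 spread widely within wild type (from 6.70 to 8.20, and from 6.34 to 8.19), and their groups overlapped. In the chromosome III gap SPNCRNA.480 and SPNCRNA.481 were among the lowest 2 percent of features in both strains and differed by 0.10 ± 0.11 and -0.13 ± 0.16. SPNCRNA.369, SPNCRNA.370 and SPNCRNA.374 of the chromosome II gap were likewise among the lowest 2 percent, where a change would be hard to see.

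The proteins of the pathway were measured as RNA too. Of 28 RNA interference and heterochromatin factors 4 rose and 1 fell, shares of 14.3% and 3.57% beside 14.7% and 17.6% of all features, with a median change of -0.02. Beside dcr1 the rises included cid12 (0.29 ± 0.07) and hrr1 (0.17 ± 0.04), both of the complex that makes double-stranded RNA. The decrease was at dsh1, a factor of heterochromatic RNA silencing (-0.36 ± 0.06, adjusted p = 0.00157). The 4 rises became 2 without dcr1ΔC33 array 2 and after quantile normalization, where hrr1 turned to -0.01, and 1 after centring within each chromosome, where hrr1 also turned to -0.01. The decreases became 3 without wild-type array 2, 4 with the replicate block and 8 after quantile normalization, and the rises became 1 without the lowest 20 percent of features.

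**Figure D2:**
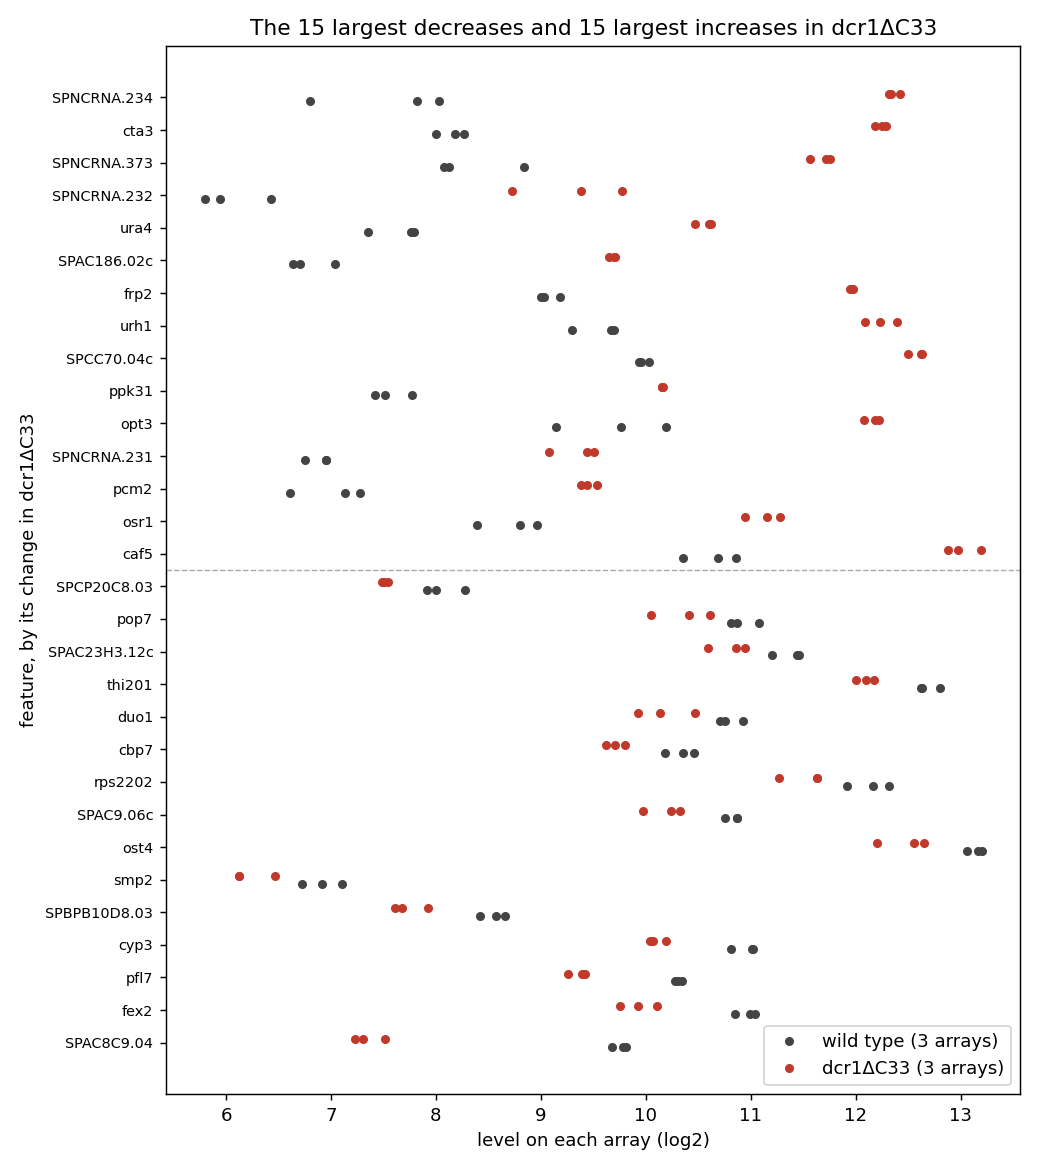
Log2 level on each wild-type array (grey) and each dcr1ΔC33 array (red) for the 15 features that rose most and the 15 that fell most among those whose arrays did not overlap, ordered by change. The rises shown have mean changes of 2.38 or more, and the decreases other than SPAC8C9.04 and fex2 have changes smaller than 1 in size.

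Beyond the centromere gaps, the largest rise was that of cta3, which encodes a cation-transporting ATPase. Its level was 8.27, 8.0 and 8.18 in wild type and 12.29, 12.19 and 12.25 in dcr1ΔC33, a 17-fold rise (4.09 ± 0.15, adjusted p = 1.10e-07). It overlaps SPNCRNA.319. The ferric reductase gene frp2 had the smallest p, with 9.03, 9.0 and 9.19 in wild type and 11.94, 11.98 and 11.97 in dcr1ΔC33 (7.40-fold, 2.89 ± 0.06, adjusted p = 3.99e-10). The strains did not overlap at either gene. The uracil synthesis gene ura4 rose from 7.76, 7.36 and 7.79 to 10.60, 10.47 and 10.62 (7.60-fold, 2.93 ± 0.10). It is a common marker gene, and the sources do not say whether the strains differ in their ura4 allele.

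The rest of the 15 largest rises included urh1, a uridine ribohydrolase gene that overlaps mal1 (2.69 ± 0.11), and SPAC186.02c near the right end of chromosome I (2.89 ± 0.18). SPCC70.04c, which overlaps the proline oxidase gene put1, rose by 2.61 ± 0.11. The protein kinase gene ppk31 rose from 7.78, 7.42 and 7.51 to 10.16, 10.15 and 10.15 (2.59 ± 0.15). The peptide transporter gene opt3 (2.46 ± 0.20), the protein repair methyltransferase gene pcm2 (2.45 ± 0.15), osr1 (2.41 ± 0.17) and the transporter gene caf5 (2.38 ± 0.17) followed. The calls of the 15 largest rises were not lost under any other scaling, moderation or choice of arrays in which the feature was tested.

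Core environmental stress genes, a common set induced by diverse stresses through the MAP kinase Sty1, had the highest share of rises among the lists. Of 33 measured members 22 rose (66.7%, beside 14.7% of all features) and none fell, with a median change of 0.57, and 11 were not called. The members were chosen with earlier results of these data known, so this share is not independent of the data. Leaving out single arrays gave between 17 and 21 rises. Their median level in wild type was 12.61. Beside cta3 and caf5, ecl1, whose product extends chronological lifespan, rose from 13.04, 12.51 and 12.72 to 15.07, 15.08 and 15.09 (5.00-fold, 2.32 ± 0.11). The metallothionein gene zym1 rose from 9.74, 9.65 and 9.46 to 11.66, 11.83 and 11.84 (4.47-fold, 2.16 ± 0.14). At all of these the strains were fully separated.

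Calls among genes of the Sty1 pathway itself were few and moved with single arrays. Of 20 measured 1 rose and 2 fell, with a median of 0.01. The shares were 5% and 10%, beside 14.7% and 17.6% of all features. The kinase gene wis1, directly above Sty1, fell by 0.22 (-0.22 ± 0.04, adjusted p = 0.00309), the phosphatase gene ptc4 changed by -0.14 ± 0.05 and the phosphatase gene ptc1 by 0.20 ± 0.06. The ptc1 and ptc4 calls were lost without several single arrays, with adjusted p up to 0.0913 for ptc1 without dcr1ΔC33 array 2 and 0.136 for ptc4 without dcr1ΔC33 array 3. The count of rises was 4 without wild-type array 2, 2 without dcr1ΔC33 array 1 and 0 without each of the other 4 arrays, and the count of decreases was 1 without each array except wild-type array 3. With the replicate block 5 rose, and after quantile normalization 3 rose and 1 fell.

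Of 24 heat shock protein and chaperone genes 7 rose and 2 fell (29.2% and 8.33%, beside 14.7% and 17.6% of all features). Their median change was 0.03. The small heat shock gene hsp16 rose from 12.25, 11.37 and 12.24 to 13.86, 13.94 and 13.94 (3.89-fold, 1.96 ± 0.19, adjusted p = 7.08e-05). The Hsp70 gene ssa1 rose from 12.92, 12.66 and 13.48 to 14.08, 14.01 and 14.16 (1.06 ± 0.18). Wild type varied far more than dcr1ΔC33 at both genes. The disaggregase genes hsp104 (0.69 ± 0.10) and hsp78 (0.68 ± 0.12) rose as well, and the rises numbered between 5 and 8 without single arrays. The 2 decreases became 0 without dcr1ΔC33 array 1 or 2 or wild-type array 3, and 1 without wild-type array 2 or dcr1ΔC33 array 3.

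Of 31 peroxide defence genes 9 rose and 1 fell (29.0% and 3.23%), with a median of 0.07, and 2 fell with the replicate block. Some lists share members, and the largest change here, 2.38, is that of caf5, also counted among the core stress genes. The sulfiredoxin gene srx1 rose from 12.56, 12.46 and 12.81 to 13.70, 13.78 and 13.95 (1.20 ± 0.15), and the superoxide dismutase gene sod1 from 11.56, 11.41 and 11.60 to 12.21, 12.18 and 12.15 (0.66 ± 0.07). The glutathione S-transferase gene gst2 rose by 1.06 ± 0.23. Of 11 trehalose and glycerol genes 5 rose and 1 fell (45.5% and 9.09%, beside 14.7% and 17.6% of all features). The trehalase gene ntp1 led (0.67 ± 0.07), and the glycerol phosphate dehydrogenase gene gpd1 rose by 0.29 ± 0.05. The 5 rises became 3 without any of the wild-type arrays or without dcr1ΔC33 array 3, and the dihydroxyacetone kinase gene dak2 was among those lost (0.54 ± 0.19, adjusted p up to 0.156 without dcr1ΔC33 array 3).

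Several genes of carbon use rose. Of 21 genes of hexose transport or under glucose repression 6 rose and none fell (28.6%), with a median of 0.16. Of 19 glycolysis and fermentation genes 5 rose and 1 fell (26.3% and 5.26%, beside 14.7% and 17.6% of all features). Their median was -0.03, the all-feature value, at a median wild-type level of 14.73. The glycolytic decreases became 3 with the replicate block and 0 after quantile normalization, and the rises 3 without the lowest 20 percent of features. The enolase gene eno102 rose from 9.03, 9.08 and 9.66 to 11.48, 11.60 and 11.55 (4.87-fold, 2.28 ± 0.20). It has the largest change in both lists, which share it. The invertase gene inv1 rose from 12.26, 11.61 and 11.54 to 13.13, 13.08 and 13.17 (1.32 ± 0.18), and the gluconeogenic gene fbp1 from 9.88, 10.37 and 9.79 to 10.93, 11.12 and 11.23 (1.08 ± 0.24). The arrays of the strains did not overlap at these genes. Among the glycolytic genes the paralogs gpd3 (1.00 ± 0.09), pdc102 (1.12 ± 0.17) and pdc201 (1.01 ± 0.23) rose.

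Metal and nutrient genes gave mixed counts, read against 14.7% of all features higher and 17.6% lower. Of 24 iron, copper and zinc genes 8 rose and 2 fell (33.3% and 8.33%), and the rises became 5 without dcr1ΔC33 array 2. Beside frp2 the ferric reductase gene frp1 rose from 9.47, 10.41 and 9.80 to 10.86, 11.24 and 11.09 (1.17 ± 0.28), the heme uptake gene shu1 by 1.05 ± 0.21 and the zinc transporter gene zrt1 by 0.34 ± 0.05. Of 16 pyrimidine and uracil genes 5 rose and 4 fell (31.2% and 25%), the rises becoming 3 without dcr1ΔC33 array 2. Beside ura4 and urh1 the uracil-regulated gene urg1 rose from 11.81, 11.02 and 11.82 to 13.20, 13.42 and 13.03 (3.18-fold, 1.67 ± 0.24). Of 16 nitrogen-responsive genes 4 rose and none fell (25% and 0%), led by the vacuolar protease gene isp6 (0.78 ± 0.06). Of 11 phosphate-regulated genes 2 rose and 3 fell (18.2% and 27.3%). The acid phosphatase genes pho1 (-0.24 ± 0.05) and pho4 (-0.28 ± 0.05) fell and the transporter gene tgp1 rose (0.38 ± 0.07). The phosphate rises became 1 without dcr1ΔC33 array 1 or 3 or wild-type array 1.

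Of 64 autophagy and vacuolar sorting genes 15 rose and 2 fell (23.4% and 3.12%), with a median of 0.05, and the rises numbered between 11 and 14 without single arrays. The decreases became 5 with the replicate block and 6 after quantile normalization. The sorting nexin genes atg20 (0.78 ± 0.09, overlapping tim23) and atg2402 (0.66 ± 0.08) led, and the mitophagy gene atg43 rose by 0.39 ± 0.08. Of 35 proteasome genes 3 rose and none fell (8.57% and 0%, beside 14.7% and 17.6% of all features). The rises were those of pre9, rpt2 and ump1, each by 0.22 or less. The replicate block gave 6, and ump1 turned to -0.01 after centring within each chromosome. Of 56 respiratory chain and ATP synthase genes 5 rose and 3 fell, shares of 8.93% and 5.36% that were both under those of all features. Single arrays moved the rises to as few as 2 (without dcr1ΔC33 array 3), and to 3 without dcr1ΔC33 array 1 or wild-type array 3. The decreases became 12 with the replicate block and 5 without the lowest 20 percent of features. They became 1 without dcr1ΔC33 array 2 or 3 or wild-type array 2.

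**Figure D3:**
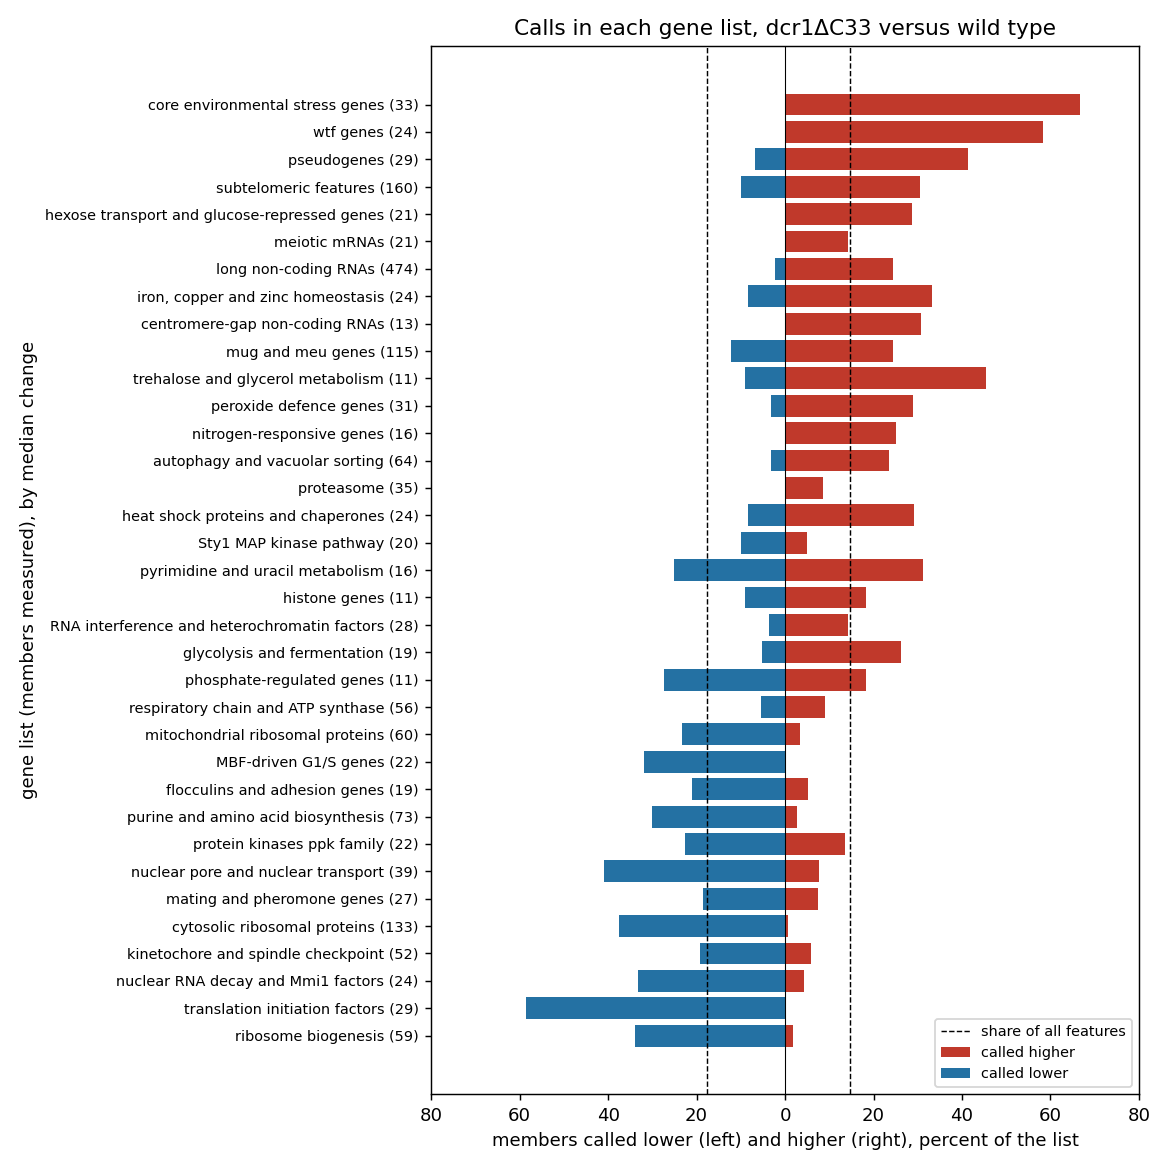
Share of the measured members of each gene list, apart from the 3 Tf2 features, called higher (red, to the right) or lower (blue, to the left) in dcr1ΔC33, in percent of the list, with the number of members in parentheses and lists ordered by median change. Dashed lines mark the shares over all features, 14.7% higher and 17.6% lower. Core environmental stress genes reach 66.7% higher and translation initiation factors 58.6% lower. The lists were chosen with earlier results of these data known.

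The largest decrease was that of SPAC8C9.04, which has no symbol in the gene table. SPAC8C9.04, on chromosome I, lay at 9.81, 9.68 and 9.78 in wild type and at 7.30, 7.23 and 7.51 in dcr1ΔC33, a 5.30-fold decrease (-2.41 ± 0.09, adjusted p = 1.17e-07). Its mean was 9.70 in dcr1Δ and 9.66 in dcr1-SHSS, and dcr1ΔC33 was lower than each (-2.35 ± 0.09, adjusted p = 1.98e-07, and -2.31 ± 0.09, adjusted p = 7.19e-07). The neighbours on either side, chosen for mention after their values were seen, did not fall. The cyclic AMP kinase regulatory subunit gene cgs1 differed by 0.20 ± 0.07 (adjusted p = 0.0562), and dtd1 rose by 0.33 ± 0.06 (adjusted p = 0.00251).

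The fluoride exporter gene fex2 fell from 10.99, 11.04 and 10.85 to 9.76, 10.10 and 9.92 (2.05-fold down, -1.03 ± 0.10, adjusted p = 7.07e-05). The flocculin gene pfl7 fell from 10.31, 10.35 and 10.28 to 9.42, 9.26 and 9.39 (-0.95 ± 0.15), and the cyclophilin gene cyp3, which overlaps SPBC1709.03, from 11.01, 11.02 and 10.81 to 10.07, 10.19 and 10.04 (-0.85 ± 0.10). At each gene the strains were separated. The other features of the 15 largest decreases changed by -0.55 to -0.81. They included the oligosaccharyltransferase gene ost4 (-0.67 ± 0.12), the ribosomal protein gene rps2202 (-0.62 ± 0.12) and pop7, of ribonucleases P and MRP (-0.56 ± 0.12). The call of SPCP20C8.03 (-0.55 ± 0.15) was lost without wild-type array 1 (adjusted p = 0.0609), and those of the other 14 were not lost under any other scaling, moderation or choice of arrays in which the feature was tested. Only 12 decreases of all features reached 1.5-fold, so some of the 15 did not. The level of smp2 in dcr1ΔC33 stood at percentile 3.3 of all features.

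Several lists of translation genes had a higher share of decreases than all features, with small changes. Of 29 translation initiation factors 17 fell and none rose (58.6%, beside 17.6% of all features), with a median change of -0.12 at a median wild-type level of 13.23. The eIF4G gene tif471 lay at 13.82, 13.88 and 13.85 in wild type and at 13.57, 13.58 and 13.55 in dcr1ΔC33 (-0.28 ± 0.03, adjusted p = 0.00022). The strains did not overlap at tif471, and the difference was larger than the spread within either. The count of 17 became 7 without dcr1ΔC33 array 2, 9 without wild-type array 3, 10 without dcr1ΔC33 array 3 and 11 without wild-type array 2 or dcr1ΔC33 array 1, and it was 10 after quantile normalization and 9 after centring within each chromosome.

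Among 133 genes for cytosolic ribosomal proteins 50 fell and 1 rose (37.6% and 0.752%, beside 17.6% and 14.7% of all features). Their median change was -0.11 at a median wild-type level of 14.04. The largest decreases were those of rps2202 and rpl1603, which overlaps apl1 (-0.51 ± 0.11). The count became 23 without wild-type array 2, 27 without dcr1ΔC33 array 1, 31 without dcr1ΔC33 array 3 and 30 after quantile normalization. Among the 20 percent of features with the highest levels 23.2% fell. Of 59 ribosome biogenesis genes 20 fell and 1 rose (33.9%), with a median of -0.13, and the replicate block raised the decreases to 33. The small-subunit processome gene utp22 fell from 12.66, 12.73 and 12.63 to 12.43, 12.30 and 12.35 (-0.32 ± 0.05), and the snoRNA-protein genes nop56 (-0.28 ± 0.05) and nop10 (-0.41 ± 0.10) fell too. Of 60 mitochondrial ribosomal protein genes 14 fell and 2 rose (23.3% and 3.33%). In the class of level that holds their median of 11.89, 22.1% of features fell. The count was 7 decreases without dcr1ΔC33 array 3 and 9 without wild-type array 1. Among them rsm23 fell from 13.72, 13.79 and 13.65 to 13.41, 13.40 and 13.38.

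Of 73 purine and amino acid biosynthesis genes 22 fell and 2 rose (30.1% and 2.74%, beside 17.6% and 14.7% of all features). Their median change was -0.08. In the class of level that holds their median wild-type level of 13.48, 23.2% of features fell. The decreases became 13 without wild-type array 3 or any one of the dcr1ΔC33 arrays. The serine synthesis gene ser2 fell from 12.41, 12.39 and 12.32 to 12.00, 12.05 and 11.99 (-0.36 ± 0.05, adjusted p = 0.000766). The asparagine synthetase gene asn2 fell by 0.31 (-0.31 ± 0.05). The strains did not overlap at either gene.

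Lists of the nucleus and of cell division are read against 17.6% of all features lower and 14.7% higher. Of 39 nuclear pore and nuclear transport genes 16 fell and 3 rose (41.0% and 7.69%), with a median of -0.09, and the decreases numbered between 11 and 15 without single arrays. The pore genes alm1 (-0.35 ± 0.05) and nup85 (-0.31 ± 0.04) fell, and the importin gene cut15 rose (0.23 ± 0.04), a call lost after centring within each chromosome (adjusted p = 0.34). Of 24 nuclear RNA decay and Mmi1 factors 8 fell and 1 rose (33.3% and 4.17%), and the replicate block gave 3 rises. The decreases included air1 (-0.38 ± 0.08), the RNA helicase gene mtl1 (-0.23 ± 0.05) and the exosome gene rrp4 (-0.27 ± 0.07), while the exosome gene mtr3 rose (0.26 ± 0.07). The 8 decreases became 5 without wild-type array 1 or dcr1ΔC33 array 3. The rrp4 call was lost without either of these arrays and the mtr3 call without dcr1ΔC33 array 1 or 3 or wild-type array 2 or 3 (adjusted p up to 0.0753 and 0.0769).

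Of 52 kinetochore and spindle checkpoint genes 10 fell and 3 rose (19.2% and 5.77%), with a median of -0.11, a share of decreases near that of all features. The decreases became 18 after quantile normalization, with 1 rise, and 6 without wild-type array 2 or dcr1ΔC33 array 1. The rises became 0 without dcr1ΔC33 array 2 and 1 without wild-type array 2 or 3 or dcr1ΔC33 array 3. The largest decreases were those of duo1, a microtubule-binding kinetochore gene (-0.62 ± 0.12), and of sgo1, the shugoshin that protects centromeric cohesion, from 9.74, 9.80 and 9.96 to 9.41, 9.39 and 9.10 (-0.53 ± 0.10). Both overlap another measured gene. Of 22 genes driven by the G1/S factor MBF 7 fell and none rose (31.8%), with 4 decreases without dcr1ΔC33 array 1 and 3 without dcr1ΔC33 array 3. The mitotic inhibitor kinase gene mik1 fell from 10.26, 10.40 and 10.21 to 9.87, 9.91 and 9.84 (-0.42 ± 0.07) and the cyclin gene cig2 by 0.26 (-0.26 ± 0.04). Of 11 histone genes 2 rose and 1 fell (18.2% and 9.09%), and each change was 0.22 or smaller in size.

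Sexual differentiation genes moved both ways, and these lists are read against 14.7% of all features higher and 17.6% lower. Of 115 mug and meu genes, named for meiotic upregulation, 28 rose and 14 fell (24.3% and 12.2%), at a low median level of 9.66. The excess of rises depended on scaling, since quantile normalization gave 24 higher and 22 lower, and 18 rose without the lowest 20 percent of features. The largest rise was that of meu7, from 8.30, 8.15 and 8.12 to 10.55, 10.23 and 10.53 (4.74-fold, 2.24 ± 0.09). Of 21 meiotic mRNAs 3 rose and none fell (14.3% and 0%), at a median level of 8.09. There were 6 rises under the replicate block, 2 decreases after quantile normalization and 1 rise without the lowest 20 percent of features. The mug4 gene turned to just below 0 after centring within each chromosome. Of 27 mating and pheromone genes 2 rose and 5 fell (7.41% and 18.5%), a share of decreases near that of all features. The pheromone genes map2 (0.48 ± 0.08) and mfm3 (0.63 ± 0.15) rose and the GTPase gene ras1 fell (-0.36 ± 0.05). The 5 decreases became 3 without wild-type array 1 or 2 or dcr1ΔC33 array 1 and 1 without dcr1ΔC33 array 3, and the replicate block gave 11. Of 19 flocculin and adhesion genes 1 rose and 4 fell (5.26% and 21.1%), and of 22 ppk kinase genes 3 rose and 5 fell (13.6% and 22.7%). The 5 ppk decreases became between 1 and 3 without wild-type array 2 or 3 or any one dcr1ΔC33 array, 10 with the replicate block and 8 after quantile normalization. The ppk rises became 1 without the lowest 20 percent of features.

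In the values as deposited, long non-coding RNAs rose more often than features as a whole, but about as often as other dim features. Of 474 measured, 116 rose and 11 fell (24.5% and 2.32%, beside 14.7% and 17.6% of all features). Their median was 0.12 at a median wild-type level of 6.91. The direction of the list was not stable to scaling, since quantile normalization gave 61 higher and 56 lower. With that scaling 692 of all 5483 features rose, a share near that of the list. The replicate block gave 18 lower, and 25 rose without the lowest 20 percent of features, which removes most of these RNAs. Among the 20 percent of features with the lowest levels 22.6% rose and 4.01% fell. Of 29 pseudogenes 12 rose and 2 fell (41.4% and 6.90%), with a median of 0.22 at a median level of 8.87, and the rises became 7 after centring within each chromosome. SPCC18B5.02c rose from 10.65, 9.56 and 10.81 to 12.08, 12.11 and 12.22 (1.79 ± 0.33), and SPBPB10D8.03 fell from 8.66, 8.42 and 8.57 to 7.93, 7.61 and 7.68 (-0.81 ± 0.09). None of 3 Tf2 retrotransposon features passed. The nearest, Tf2-10, differed by 0.31 ± 0.13 (adjusted p = 0.0868, and 0.0437 without dcr1ΔC33 array 2).

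Features near the ends of chromosomes I and II were taken as the outermost 40 at each of the 4 ends. Of these 160 features 49 rose and 16 fell (30.6% and 10.0%, beside 14.7% and 17.6% of all features). Their median change was 0.16 at a median wild-type level of 8.44. Among the 20 percent of features with the lowest levels, below 9.46, 22.6% rose and 4.01% fell. The 49 rises became 18 without those features. The decreases became 9 without dcr1ΔC33 array 2 and 10 without dcr1ΔC33 array 3. Counts per end depended on how many features were taken, and differences between ends were not tested. Among the outermost 20 features 9 rose and 3 fell at the left end of chromosome II, and 7 rose and none fell at its right end, where the median was 0.44. On chromosome I, 8 rose and none fell at the right end and 2 rose and 2 fell at the left. Among the next 20 features 3 rose and 2 fell at the left end of chromosome II, and 6 rose and 6 fell at its right end. On chromosome I these numbers were 7 and 0 at the right end and 7 and 3 at the left. The pcm2 gene, near the right end of chromosome I, rose from 6.61, 7.14 and 7.27 to 9.44, 9.54 and 9.38. A stretch of 6 adjacent features that all rose ran from SPAC186.06 to SPAC750.01, which is number 3 of the measured features counted from the same end. Its members included the pyruvate decarboxylase gene pdc102, from 7.68, 7.1 and 7.89 to 8.70, 8.52 and 8.80, and SPAC750.01 (1.19 ± 0.21). The calls of SPAC186.06 and SPAC186.07c in it were lost without single arrays (adjusted p up to 0.0678 without dcr1ΔC33 array 3 and 0.103 without wild-type array 2).

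The 3 chromosomes differed as wholes. On chromosome III, 250 of 978 features rose and 54 fell (25.6% and 5.52%). On chromosome I, 267 of 2424 rose and 447 fell (11% and 18.4%), and on chromosome II, 259 of 1955 rose and 460 fell (13.2% and 23.5%). The median change was 0.06 on chromosome III beside -0.04 on I and -0.05 on II. This split was noticed in these data and then measured per array, so its test is not independent of the observation.

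For each array the median difference from the wild-type mean on chromosome III was set against that on chromosomes I and II together. This measure was 0.004, 0.003 and -0.005 on the wild-type arrays and 0.101, 0.104 and 0.089 on the dcr1ΔC33 arrays. The wild-type arrays form the reference, so their values lie near 0 by construction. The groups did not overlap, and the difference was 0.097 on the log2 scale, or 1.07-fold (exact permutation test, 2-sided p = 0.1, the smallest that 3 arrays against 3 allow). The reference was not recomputed in the permutations, so the separation from wild type and this p are partly fixed in advance. The measure was 0.040, 0.046 and 0.040 on the dcr1Δ arrays and 0.103, 0.114 and 0.093 on the dcr1-SHSS arrays. The dcr1ΔC33 arrays lay above the dcr1Δ arrays by 0.056 (exact permutation p = 0.1) and among the dcr1-SHSS arrays (difference -0.01, exact permutation p = 0.5). These 3 tests form one family, and none can fall below 0.1 in this design.

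The difference was spread along the chromosome and over levels. In order along chromosome III each of 10 equal parts had a positive median change, from 0.012 to 0.114. The 10 parts of chromosome I ranged from -0.059 to -0.014, and those of chromosome II from -0.086 to -0.011 apart from the first, at 0.032. The median on chromosome III was also above those of I and II in each of 5 equal classes of level, for example 0.139 beside 0.074 and 0.097 in the lowest and -0.026 beside -0.071 and -0.076 in the highest. The difference per array was 0.0918 after quantile normalization, 0.0949 without the lowest 20 percent of features and 0.0956 over protein-coding features alone. Whether the copy number of chromosome III or of parts of it differed was not tested.

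**Figure D4:**
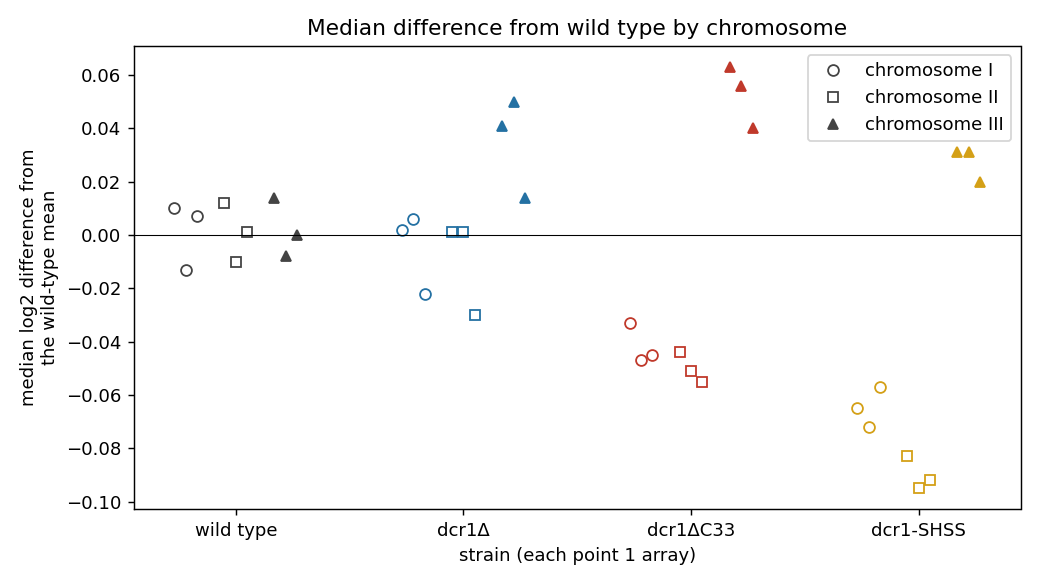
Median log2 difference from the wild-type mean over the features of chromosome I (circles), II (squares) and III (filled triangles), 1 point per array, for the 4 strains with 3 arrays each. In dcr1ΔC33 the triangles lie between 0.040 and 0.063 and the other points between -0.055 and -0.033.

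The wtf genes, spore-killing elements with closely similar copies, lie mostly on chromosome III. Of 24 members 14 rose and none fell (58.3%), beside 14.7% higher over all features and 25.6% on chromosome III. Their median was 0.39 at a median level of 9.43, and the rises numbered between 10 and 12 without single arrays. After centring within each chromosome 4 of the 24 rose, a share near that of all features in that setting (777 of 5483). After quantile normalization or without the lowest 20 percent of features 9 rises were left. The wtf11 gene rose from 8.25, 8.14 and 8.46 to 8.78, 8.80 and 8.86 (0.53 ± 0.09, adjusted p = 0.00221), while the calls of wtf18, wtf22 and wtf25 were lost after centring within each chromosome (adjusted p = 0.0983, 0.0525 and 0.0518). Probe signal of near-identical copies is uncertain.

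Of the stretches of adjacent features called in the same direction, most held 1 feature, 457 higher and 579 lower. How often neighbours would share a direction from the call rates alone was not tested. The longest stretches split by chromosome. The longest was of 7 adjacent features that fell on chromosome II. It ran from the replication clamp gene pcn1 (-0.23 ± 0.04) through the flocculation regulator gene mbx2 (-0.36 ± 0.06) and pop7 to the ribosomal gene rpl402 (-0.18 ± 0.03). Its members tad2, rps1801 and rng9 lost their calls without single arrays, so it was broken without each of the 6 arrays in turn. Of the 6 stretches of 6 features, the 3 on chromosome III and the 1 on chromosome I rose, and the 2 on chromosome II fell. In those on chromosome II rpl2501, exo70, cdc13, tim22, vac14 and SPBC20F10.02c lost their calls without single arrays. One on chromosome III ran from the ubiquitin protease gene ubp5 (0.32 ± 0.04) to dcr1. Another ran from yme1 to alr1 and held osr2 (1.11 ± 0.16) and gst2. The remaining one ran from rox3 to SPNCRNA.501 and held dao1, from 12.45, 12.52 and 12.03 to 13.61, 13.41 and 13.59 (1.20 ± 0.12), and plb5 (1.05 ± 0.08). Within them rox3, grx3, wtf16, prp45, SPCC188.10c, dcr1 and thp1 lost their calls after centring within each chromosome. Overlapping neighbours such as spn6 and dcr1 are not independent measurements.

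The comparison of dcr1ΔC33 with dcr1Δ asks where the altered Dicer differs from its absence. In all 433 features differed (7.90%), 253 higher in dcr1ΔC33 (4.61%) and 180 lower (3.28%), and 72 and 5 of them by at least 1.5-fold (1.31% and 0.0912%). With the replicate number as a block 847 differed, 406 higher and 441 lower. The count was 120 without dcr1ΔC33 array 3, 130 without dcr1Δ array 1, 180 without dcr1ΔC33 array 1, 216 without dcr1Δ array 2 and 235 without dcr1ΔC33 array 2. Of the 33 core stress genes 11 were higher in dcr1ΔC33 than in dcr1Δ and none lower, with a median difference of 0.33. Against the same wild-type arrays, which all 3 comparisons share, the list's median change was 0.21 for dcr1Δ, 0.57 for dcr1ΔC33 and 0.63 for dcr1-SHSS.

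Several of the genes that rose against wild type stood higher in dcr1ΔC33 than in dcr1Δ. The cta3 gene lay at 10.69, 10.84 and 11.26 in dcr1Δ, below the dcr1ΔC33 arrays by 1.31 ± 0.15 (adjusted p = 0.00125). At urh1 the dcr1Δ arrays lay at 10.71, 10.69 and 10.69, 1.54 ± 0.11 below dcr1ΔC33 (adjusted p = 5.38e-05). SPBC1773.03c, which rose from 9.79, 9.61 and 9.82 to 12.17, 11.93 and 12.15 against wild type, lay at 10.60, 10.72 and 10.91 in dcr1Δ (difference 1.34 ± 0.10). The 4 centromere-gap RNAs that rose did not pass between these strains, with differences of 0.24 ± 0.25 at SPNCRNA.234, -0.42 ± 0.17 at SPNCRNA.373, -0.03 ± 0.24 at SPNCRNA.232 and 0.20 ± 0.11 at SPNCRNA.231. Missing the threshold does not show that their levels were equal.

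Other named features between these strains included some without a call between dcr1ΔC33 and wild type. The subtelomeric gene gdt1 lay at 11.70, 11.69 and 12.13 in wild type and at 11.58, 11.47 and 11.81 in dcr1ΔC33, where it was not called against wild type (adjusted p = 0.243), but at 7.82, 8.05 and 8.21 in dcr1Δ (3.59 ± 0.14 higher in dcr1ΔC33, adjusted p = 1.98e-07). The ftm4 gene was 1.63 ± 0.20 higher in dcr1ΔC33 than in dcr1Δ (adjusted p = 0.00148). The meiotic gene spo6 was lower in dcr1ΔC33 (-0.52 ± 0.06), at 10.17, 10.20 and 10.16 against 10.77, 10.60 and 10.73 in dcr1Δ. So was SPNCRNA.481 of the chromosome III centromere gap (-0.92 ± 0.16), near the lowest levels in both. The flocculin genes pfl6 (-0.68 ± 0.15) and pfl9 (-0.69 ± 0.16) and smp2 (-0.59 ± 0.15) were lower too. At smp2 dcr1ΔC33 was also below wild type. The calls of pfl6 and smp2 were lost in 5 of the 6 fits that each left out 1 array, and that of pfl9 in 4.

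Against dcr1-SHSS only 8 features differed (0.146%), 5 higher in dcr1ΔC33 (0.0912%) and 3 lower (0.0547%), and 847 did at an unadjusted p under 0.05. Beside SPAC8C9.04 the lower features were ost4 (-0.76 ± 0.12, adjusted p = 0.0385) and gon7 (-0.35 ± 0.05, adjusted p = 0.042). The higher features were SPAC212.04c, at 8.70, 8.24 and 8.69 against 7.50, 7.06 and 7.40 in dcr1-SHSS (1.22 ± 0.15, adjusted p = 0.0118), the flap nuclease gene rad2 (0.34 ± 0.05), mug62 (0.28 ± 0.03), SPNCRNA.177 (0.55 ± 0.07) and prl4 (0.30 ± 0.04), which lay among the lowest 2 percent. Of the 8 only SPAC8C9.04 passed without each of the 6 arrays in turn. The count was 1 without dcr1ΔC33 array 1 or dcr1-SHSS array 2, 2 without dcr1ΔC33 array 3 and 3 without dcr1-SHSS array 1. So few calls do not show that the strains act alike.

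**Figure D5:**
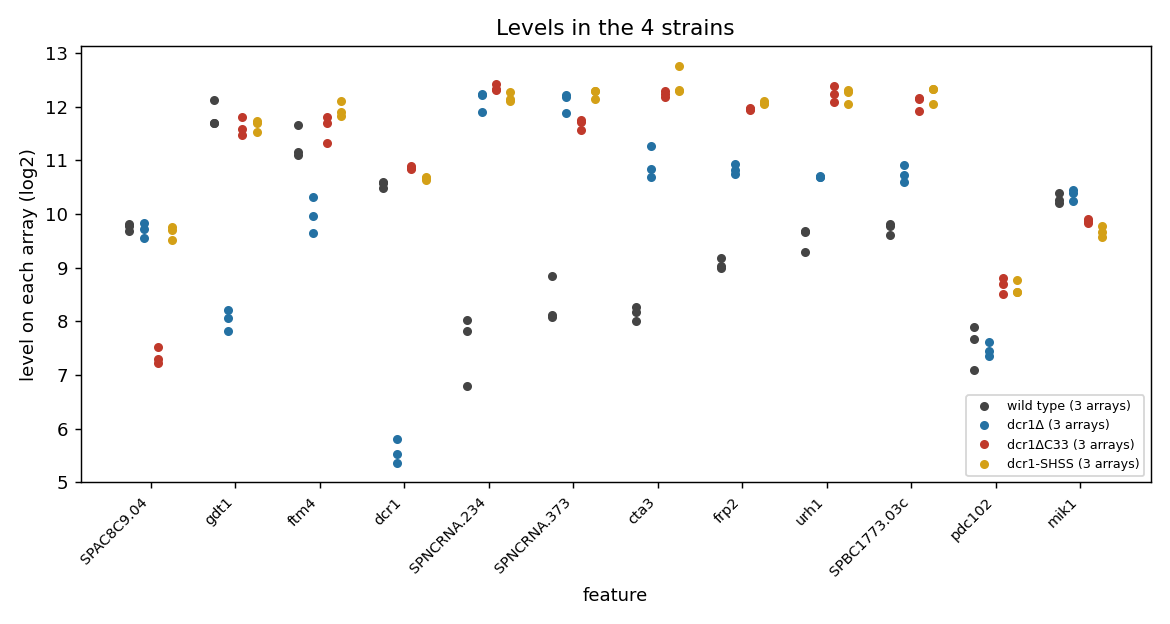
Log2 level on each array of wild type (grey), dcr1Δ (blue), dcr1ΔC33 (red) and dcr1-SHSS (yellow) for 12 features. SPAC8C9.04 is low in dcr1ΔC33 alone, gdt1 and dcr1 are low in dcr1Δ alone, and cta3, frp2, urh1 and SPBC1773.03c lie in dcr1Δ between wild type and the other mutants.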

How the data were processed

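Total RNA of 12 fission yeast cultures was hybridised to Affymetrix tiling arrays after double-stranded labelling, per the labels' protocols. The deposited table holds 1 log2 level per feature and array. The software was R 2.10.0 and affy, per the submitters' processing notes. How background was corrected, values normalized and probes assigned, and on which build, is not given in the sources, so scale and centring are known only from the values. Array background can shrink differences at low levels. The most similar pair of arrays had a median absolute difference of 0.057 (log2), and each array counted as 1 replicate.

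The log2 levels were used as deposited in limma 3.58.1 under R 4.3.3 (4 groups, 12 arrays, moderated 2-sided tests, prior degrees of freedom 2.44, residual 8). P-values rest on a spread per feature that was pooled over all 12 arrays of the 4 strains and moderated over all features. With the 2 compared strains alone 1540 features were called against wild type. Of 5483 IDs 5357 matched the gene table of ASM294v3, used for names and gene order, and the others kept their ID. No sequences are printed.

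Named genes were dcr1, the 15 highest and 15 lowest called changes with separated arrays, 6 each way between mutants, up to 4 members per list, the longest stretches and the centromere-gap RNAs. Members and the 36 lists were chosen with earlier results of these data known. Same-numbered arrays deviated together in dcr1ΔC33 and wild type (correlations 0.177, 0.388 and 0.223) and in dcr1ΔC33 and dcr1Δ (0.184, 0.3 and 0.131). There the numbers of the array titles were taken as a possible pairing. They were not for dcr1-SHSS (0.021, 0.351 and 0.139). The main fits, which gave the changes, errors and adjusted p of the main results, left the pairing out. With it as the replicate block 2267 features were called against wild type, not 1771, and 847 against dcr1Δ, not 433. The model was tested on simulated data first. Alternatives were quantile normalization, median centring, no lowest 20 percent, the compared strains alone, trend and robust moderation, the replicate block, single arrays left out, a 1.5-fold minimum and an adjusted p of 0.01. Centring within each chromosome, leaving out chromosome III and the checks of its shift were chosen after seeing the data.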

Additional observations from a re-analysis of the deposited data

How the results depend on the processing

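Against wild type the called count stayed within 1.5 times of 1771 under quantile normalization, median centring, the dim-feature filter, the 2 strains alone, trend moderation, centring within each chromosome and the replicate block (2267). It was 235 (223 higher, 12 lower) with a 1.5-fold minimum and 852 (485 and 367) at adjusted p 0.01. Without single arrays it was 1178 to 1483 (602 to 740 higher, 576 to 761 lower). Against dcr1Δ the 2 strains alone gave 272 (76 lower), the replicate block 847 (406 higher, 441 lower), the 1.5-fold minimum 77 (72 and 5), adjusted p 0.01 90 (77 and 13), and single arrays left out 120 to 434 (94 to 226 higher, 23 to 208 lower). Against dcr1-SHSS the 8 calls became 2 after quantile normalization (1 higher, 1 lower), 1 in the 2 strains alone (0 higher, 1 lower), 4 with trend moderation (1 higher), 3 with the 1.5-fold minimum (1 higher), 1 at adjusted p 0.01 (0 higher, 1 lower), and 1 to 7 without single arrays (0 to 5 higher, 1 to 2 lower). Without the lowest 20 percent, a filter that also removes SPAC8C9.04, limma gave 0 (0 higher, 0 lower), with 614 at an unadjusted p under 0.05. The replicate block kept 8, of which 5 were shared, and there the numbers were not taken as a possible pairing. Among the named features 184 were called against wild type, 130 of them under every other scaling, moderation or choice of arrays in which they were tested and 54 not. The 1.5-fold minimum and adjusted p of 0.01 were applied to counts, not to these features, and dim features were not tested under the dim-feature filter. Signs turned at hrr1 after quantile normalization (-0.0051) and, after centring within each chromosome, at hrr1 (-0.008), mug4 (-0.0025), wtf16 (-9e-04) and ump1 (-0.0095). Causes were not tested. Changes under about 0.2 rest on a small spread pooled over the 4 strains, with 3 arrays per strain. Dim features may hold background, and overlapping features share signal.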
